A study of Mus musculus with 7 samples.

Results

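The genes described here encode the heat shock protein families and their J protein partners. They were chosen by symbol alone: the HSP90 pair of the cytosol, HSP70 and HSP110 proteins, small heat shock proteins, the mitochondrial chaperonin pair Hspd1 and Hspe1, and every gene of the Dnaja, Dnajb and Dnajc series. Hspa5, the HSP70 of the endoplasmic reticulum, was left out by the rule. The rule found 70 of the 24421 symbols in the table, and 56 of them had enough reads to be among the 10535 genes tested.

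The series measured messenger RNA from 3' ends of polyadenylated transcripts in 7 libraries of sorted stromal cells of BALB/c mice. The pCAF group held 3 libraries of cancer-associated fibroblasts. They came from tumors of 1 cm in female mice that had received 100000 4T1-luc cells, a mouse mammary carcinoma line with luciferase, in a mammary fat pad. Cells without Ter119, CD45 and EpCAM and with podoplanin (PDPN) were kept, the animals' age was given as 8 weeks, and the label of pCAF replicate 3 read PDPN negative in 1 field. The NMF group held 4 libraries, made from normal mammary fat pads of untreated mice given as 12 weeks old and sorted with the same negative markers but not for PDPN. The design text nevertheless called the mice age matched. Before sorting, tumors were digested for 20 minutes at 37 °C with collagenase A, given as 3 mg/ml. Fat pads were digested for 25 minutes at 37 °C with collagenases II and IV, given as 1 mg/ml. The tissue, the injection of tumor cells, the enzymes and their concentration, the digestion time, the stated age and the sort therefore cannot be told apart from one another. Replicates were called biological, without a statement of which animals gave them or whether animals were pooled. The p-values therefore measure only the spread between these libraries.

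Heat shock proteins bind unfolded polypeptides and help them to fold, to cross membranes or to be degraded. HSP70 proteins do so in cycles of ATP hydrolysis, which J proteins start by bringing a substrate and touching the HSP70 with a conserved J domain, and which HSP110 proteins reset by releasing ADP. HSP90 acts later, on kinases, steroid receptors and other near-native clients, small heat shock proteins hold aggregating proteins without ATP, and the mitochondrial chaperonin folds imported proteins inside a closed barrel. Many but not all of these genes are induced by heat shock factor 1 (HSF1), which binds as a trimer to alternating repeats of a short motif, and many are transcribed without stress. In tumor stroma the family is known mainly through HSF1, which is active in many cancer-associated fibroblasts.

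The promoter sequences that bear on the gene pairs described below are given first. RefSeq promoters on GRCm38.p6, each from 250 bases before to 50 bases after a transcription start, were found for 56 of the 70 genes. Those not found were Hsp90aa1, Hsp90ab1, Hspa8, Hspa9, Hspa13, Hspb2, Dnajc2, Dnajc5, Dnajc5b, Dnajc11, Dnajc12, Dnajc18, Dnajc22 and Dnajc30. Hspd1 and Hspe1 are transcribed away from each other from starts 216 bases apart and share 285 of the 300 bases of their promoter windows. For Hspd1 this is the window printed below, 1 of the 2 listed for it. The stress-inducible HSP70 genes Hspa1a and Hspa1b lie on the same strand of chromosome 17, 9951 bp apart, and 296 of 300 bases of their windows were identical, so Hspa1a is shown for both. The sequences run 5' to 3' on the strand of the gene, and capitals mark alternating heat shock units (GAA and its reverse complement TTC, 2 bases apart), 3 or more units in Hspd1 and 2 units in Hspa1a.
Hspd1 (chr1:55087883-55088182, minus strand): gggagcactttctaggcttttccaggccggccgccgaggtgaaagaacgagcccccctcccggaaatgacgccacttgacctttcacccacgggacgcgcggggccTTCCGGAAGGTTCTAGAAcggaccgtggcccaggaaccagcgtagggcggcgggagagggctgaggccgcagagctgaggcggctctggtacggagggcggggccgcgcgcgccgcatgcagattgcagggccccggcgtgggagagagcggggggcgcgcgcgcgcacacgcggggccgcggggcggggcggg
Hspa1a (chr17:34972107-34972406, minus strand): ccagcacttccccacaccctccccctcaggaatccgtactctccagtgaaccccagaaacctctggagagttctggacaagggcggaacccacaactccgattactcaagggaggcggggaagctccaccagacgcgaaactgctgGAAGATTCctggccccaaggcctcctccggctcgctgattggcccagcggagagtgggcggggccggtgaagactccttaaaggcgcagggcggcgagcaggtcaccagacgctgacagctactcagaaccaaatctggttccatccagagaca

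A run of 3 alternating units, GAANNTTCNNGAA or its reverse complement TTCNNGAANNTTC, was found in the promoters of 4 of the 56 genes (7.14%), against 179 of 27025 genes in the whole promoter table (0.662%). The 4 genes were Hspd1, Hspe1, Hsph1 and Dnajb6. Of their levels, given below, those of Hspd1 and Hspe1 were called higher in pCAF, and those of Hsph1 and Dnajb6 did not pass. The shorter run of 2 units, GAANNTTC or TTCNNGAA, which every longer run also contains, was in 16 of the 56 (28.6%), against 4587 genes of the table (17.0%). The following stretches are the longer runs, in capitals throughout, so that their units can be compared.
Hspe1 (chr1:55088059-55088076, plus strand): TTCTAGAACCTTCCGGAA
Hsph1 (chr5:149636288-149636300, minus strand): TTCTGGAAAGTTC
Dnajb6 (chr5:29735852-29735864, plus strand): GAATCTTCCGGAA
The run in Hspe1 is the one printed for Hspd1 read from the other strand, and at 18 bases it holds 4 units. It lies 127 to 144 bases before the Hspd1 start of the window printed and 72 to 89 bases before the Hspe1 start. The other listed Hspd1 window (chr1:55088194-55088493) holds 0 runs of 3 or of 2 units, and the printed run lies downstream of it. In Hsph1 the run lies after the listed starts. A match is a string of letters in a window and was not tested for binding, and a window without a match says nothing about the factor.

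Library totals ran from 1885039 to 2184389 counts in pCAF and from 2223198 to 4990070 counts in NMF. Levels are given in CPM, counts scaled to library size. Within pCAF, replicate 1 stood apart: the chi-square per degree of freedom between library pairs was 40.0 and 42.2 with replicate 1 and 3.22 without it. Within NMF it was 35.6 to 39.8 with replicate 4 and 6.47 to 10.1 without it. Where leaving out either library alone changed the call of one of the 56 genes, the value without it is given. Summed levels of 7 fibroblast markers were 57000 to 62340 CPM in pCAF and 18260 to 33400 CPM in NMF, and no fibroblast marker was at 0 in either group. Blood endothelial markers, 18 genes, summed to 201.8 to 395.4 CPM in pCAF and to 3679 to 7519 CPM in NMF, and all 18 were lower in pCAF. The adipocyte markers, 8 genes, summed to 1.11 to 64.3 CPM in pCAF, where Cidec, Lep and Plin1 were at 0, and to 1950 to 15390 CPM in NMF. In RNA from bulk sorted cells, fewer cells of a type and less RNA per cell cannot be told apart.

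Of the 56 tested genes, 13 were higher in pCAF and 4 lower at an adjusted p under 0.05 by edgeR's quasi-likelihood F test. These are 23.2% and 7.14% of the tested genes, beside backgrounds of 14.3% of all 10535 genes called higher and 14.2% called lower. The genes that rose were both subunits of the mitochondrial chaperonin, 4 HSP70 genes, the HSP90 gene Hsp90aa1, and 3 genes each of the Dnajb and Dnajc series. The genes that fell were Hspa12b, Hspb6, Dnajc12 and Dnajc17. No call was made in the HSP110 class or the Dnaja series. The shares of all tested genes are also the background for the counts by class and list below. Scaled by TMM, as throughout, the median log2 fold change over the 56 was 0.15, against -0.02 over all tested genes, and 37 of the 56 were above 0. Over all tested genes 50.2% of calls were higher in pCAF. Scaling by library totals made this 37.1% and moved the median of all tested genes to -0.26; the 56 genes then had a median of -0.08, with 11 higher and 4 lower, beside 10.6% and 18.1% of all tested genes. All pCAF libraries lay above all NMF libraries for 16 of the genes and below them for 6, against backgrounds of 19.0% and 21.4% of all tested genes. Without pCAF replicate 1 and NMF replicate 4, a fit chosen after the data were seen, 25.9% of all tested genes were higher and 26.9% lower; of the 56, 22 were higher and 9 lower, the 17 genes called with all libraries among them.

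**Figure D1:**
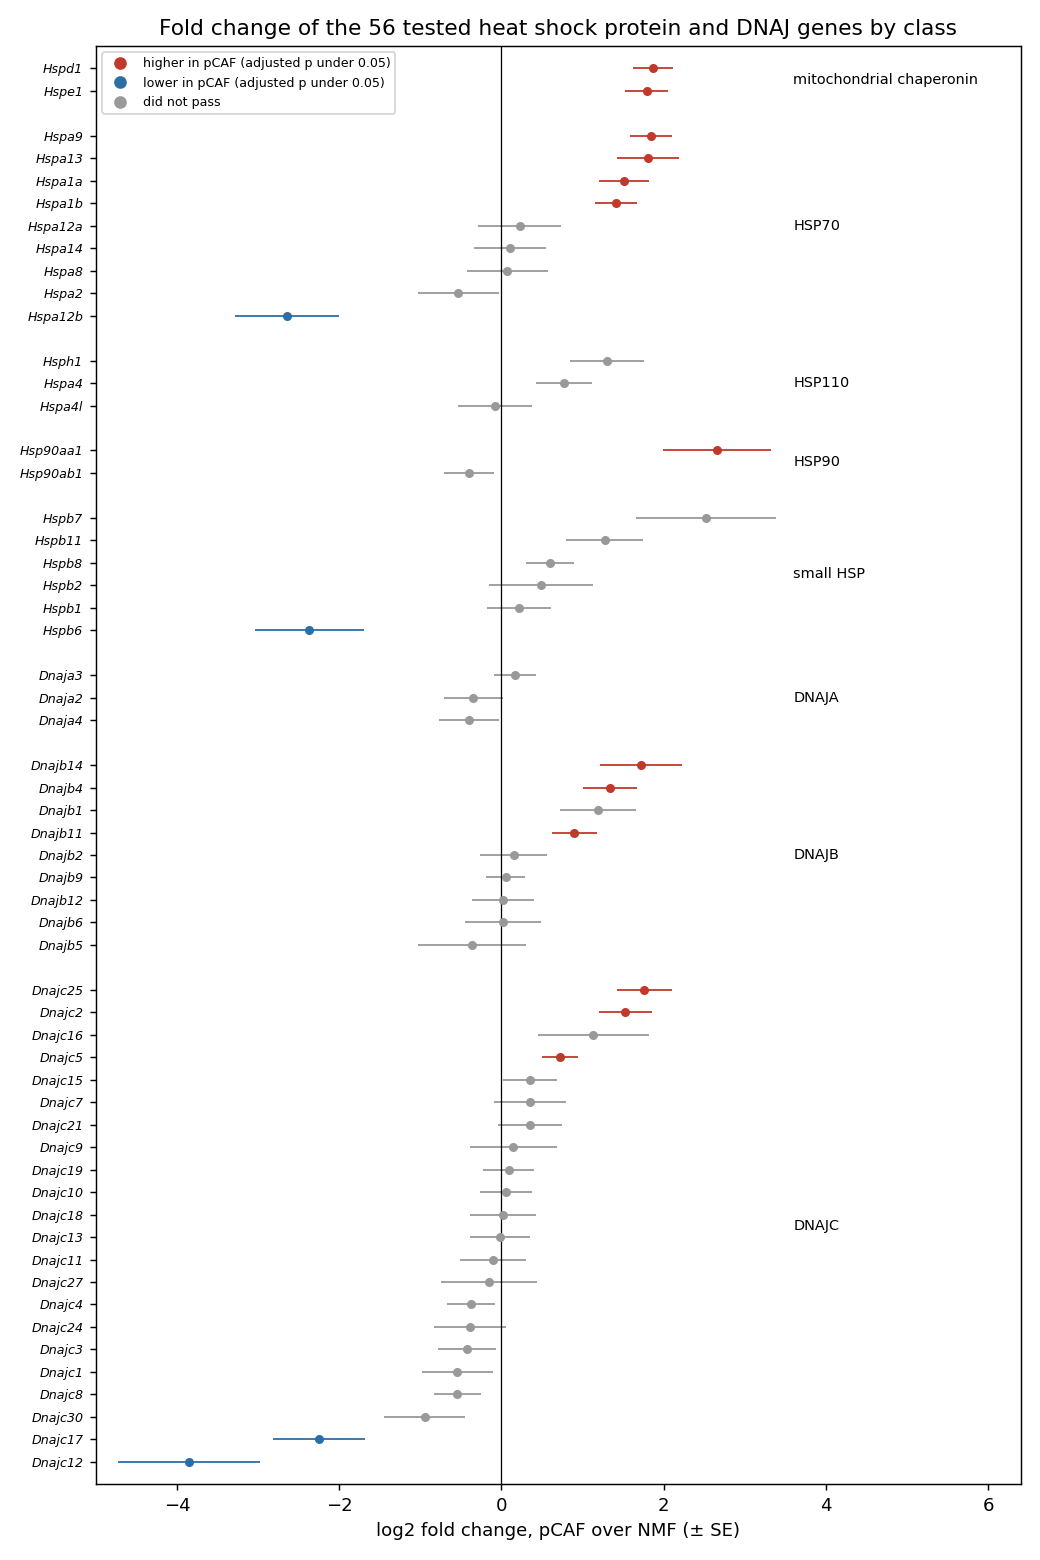
Log2 fold change (x axis, pCAF over NMF, with standard errors) of the 56 tested genes, grouped by class down the page; red points were higher and blue points lower at an adjusted p under 0.05. The 2 mitochondrial chaperonin genes lie at 1.79 and 1.87, while the 22 Dnajc genes spread from -3.85 to 1.76.

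The mitochondrial chaperonin and the mitochondrial HSP70 rose in pCAF by close to the same factor. Hspd1 (chr1:55077835-55088243) and Hspe1 (chr1:55088132-55091307) overlap on opposite strands, and Hspa9 lies at chr18:34937414-34954357, all by GENCODE M21 on mm10. Strandedness of the counting is not given in the sources used here, so reads of Hspd1 and Hspe1 may not be fully separated. Hspd1 encodes the subunit of the folding barrel and had 144, 146 and 154 CPM in pCAF replicates 1 to 3, against 32.8, 40.1, 51.4 and 37.9 CPM in NMF replicates 1 to 4. Every pCAF library was above every NMF library, the pCAF values lay close together, and no library stood out. The means were 148 ± 5.10 CPM in pCAF and 40.6 ± 7.84 CPM in NMF (SD, n = 3 and 4), a 3.64-fold difference with an edgeR adjusted p of 4.59e-04. Hspe1 encodes the lid of the barrel and had 351, 234 and 265 CPM in pCAF, against 66.8, 106, 79.6 and 74.7 CPM in NMF. The groups did not overlap, with pCAF replicate 1 highest and NMF replicate 2 the highest of its group. Its fold was 3.47 (edgeR adjusted p = 8.45e-04).

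Hspa9 encodes mortalin, the HSP70 of the mitochondrial matrix, which pulls proteins through the inner membrane and passes them on for folding. It had 156, 238 and 275 CPM in pCAF replicates 1 to 3, against 63.3, 58.3, 58.4 and 68.4 CPM in NMF replicates 1 to 4. The groups did not overlap, and the NMF libraries differed little from one another while pCAF replicate 1 was the lowest of its group. The means were 223 ± 61.2 CPM in pCAF and 62.1 ± 4.79 CPM in NMF, 3.59-fold apart (edgeR adjusted p = 6.6e-04). All 3 calls held in each of the 15 alternative fits, with adjusted p values of at most 0.0141. Among 5 J proteins of mitochondria no such call was made: of Dnaja3, Dnajc11, Dnajc15, Dnajc19 and Dnajc30, 0 of 5 passed, with log2 fold changes from -0.95 to 0.35 and edgeR adjusted p values from 0.183 to 0.872. That group of 5 was put together after its values were seen. Hspd1, Hspe1 and Hspa9 have 2, 4 and 1 near-identical copies of their 3' ends elsewhere in the annotation, and how shared reads were counted is not given in the sources used here.

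The other mitochondrial folding and proteolysis genes were read from a list of 13, of which 11 were tested. Only Yme1l1, an inner membrane protease, passed, with 11.3 ± 2.20 CPM in pCAF and 4.08 ± 1.59 CPM in NMF (2.80-fold, edgeR adjusted p = 0.0479). That call was lost in 10 of the 14 alternative fits in which the gene was tested. The matrix HSP90 gene Trap1 had 92.2 ± 27.2 CPM in pCAF and 92.2 ± 11.8 CPM in NMF, and the matrix protease Lonp1 had 115 ± 11.7 CPM in pCAF and 105 ± 9.49 CPM in NMF (edgeR adjusted p = 0.998 and 0.688). Htra2, an intermembrane space protease, had 140 ± 5.36 CPM in pCAF and 104 ± 20.8 CPM in NMF and did not pass (edgeR adjusted p = 0.218). The median log2 fold change over the 11 was 0.28.

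In the HSP70 class 4 of 9 tested genes rose and 1 fell, 44.4% and 11.1%, beside 14.3% and 14.2% of all tested genes. Hspa1a (chr17:34969190-34972156), one of the stress-inducible cytosolic genes, had 1155, 803 and 685 CPM in pCAF replicates 1 to 3, against 362, 372, 301 and 201 CPM in NMF replicates 1 to 4. All pCAF libraries were above all NMF libraries, pCAF replicate 1 was the highest and NMF replicate 4 the lowest. Means of 881 ± 244 CPM in pCAF and 309 ± 78.7 CPM in NMF differed 2.85-fold (edgeR adjusted p = 0.00471). Its neighbour Hspa1b (chr17:34956436-34959238) had 921, 684 and 661 CPM in pCAF, against 320, 310, 282 and 220 CPM in NMF. The order of the libraries was the same at both extremes, and the 2.67-fold difference also passed (edgeR adjusted p = 0.00262). The protein products of the pair are almost identical, but neither gene's last 300 bp had a copy of at least 80 bp at 95% identity elsewhere in the annotation.

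Digestion of tissue is known to induce stress genes in sorted cells, so 20 immediate early and dissociation response genes are given beside the inducible pair. They summed to 21530, 16810 and 16160 CPM in pCAF replicates 1 to 3, against 23320, 20490, 23980 and 7260 CPM in NMF replicates 1 to 4. Of the 20, 0 passed the edgeR test (1 higher and 0 lower at an unadjusted p under 0.05, 1 higher with DESeq2, 0 with limma-voom). The library with the lowest sum, NMF replicate 4, also had the lowest Hspa1a and Hspa1b of its group, and pCAF replicate 1 had the highest of both in its group. The part of dissociation in the difference between groups was not tested. Without NMF replicate 4 or without any other single library, Hspa1a was 2.401-fold to 3.18-fold and Hspa1b 2.37-fold to 2.85-fold higher in pCAF, and both calls held in all 15 alternative fits.

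**Figure D2:**
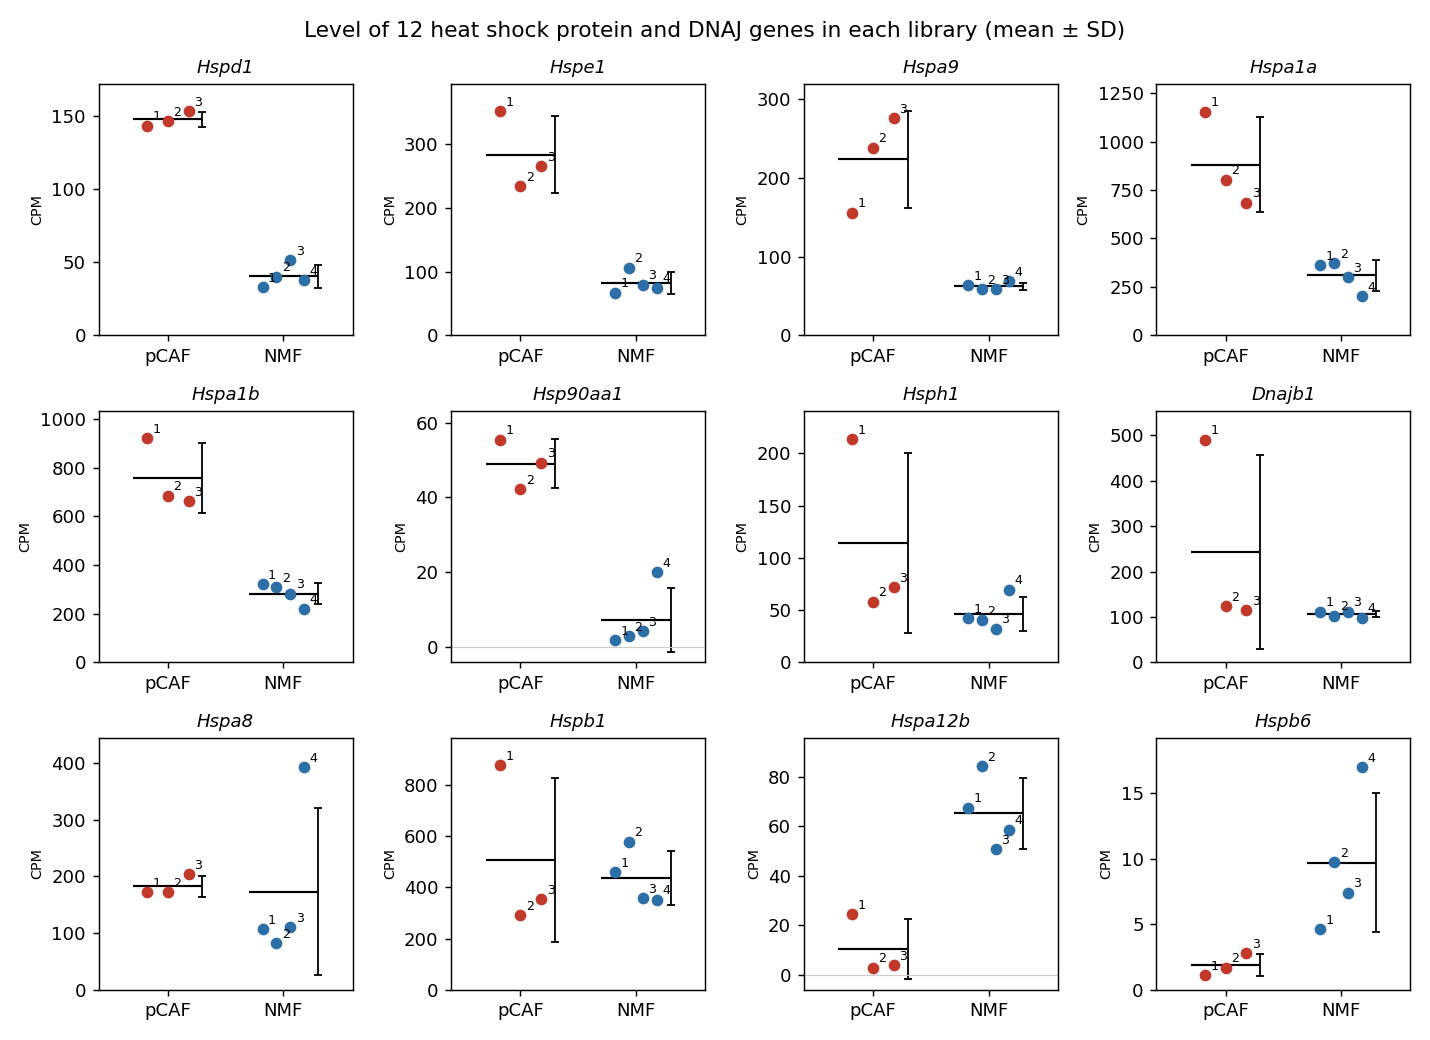
Level in CPM (y axis, linear, each panel with its own scale) of 12 genes in each pCAF library (left, red) and NMF library (right, blue), numbered by replicate, with the group mean as a line and its SD as a bar. For Hspd1, Hspe1, Hspa9, Hspa1a and Hspa1b the groups lie apart, while Hsph1, Dnajb1 and Hspb1 are set by pCAF replicate 1 and Hspa8 by NMF replicate 4.

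Hspa13, an atypical HSP70 of the endoplasmic reticulum, had 36.6, 38.3 and 41.6 CPM in pCAF, against 6.95, 11.4, 7.74 and 17.6 CPM in NMF. The groups did not overlap, and the 3 pCAF libraries lay within a narrow range. The difference was 3.50-fold (edgeR adjusted p = 0.00596). Hspa8, the constitutive HSP70 of the cytosol, had 172, 172 and 204 CPM in pCAF and 107, 81.9, 110 and 393 CPM in NMF. Here NMF replicate 4 was above every pCAF library and the other NMF libraries below all of them, and the gene did not pass (1.05-fold, edgeR adjusted p = 0.931). Without NMF replicate 4 the fold was 1.86 (edgeR adjusted p = 0.0204). Hspa8 also has 10 copies of its 3' end in the annotation. Of the remaining genes of the class, Hspa2, Hspa12a and Hspa14 did not pass, and Hspa1l had 4 counts in all and was not tested.

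Hspa12b (chr2:131127280-131146321), an atypical HSP70 known chiefly from endothelial cells, went the other way. It had 24.4, 2.82 and 3.88 CPM in pCAF replicates 1 to 3, against 67.6, 84.4, 50.7 and 58.6 CPM in NMF replicates 1 to 4. No pCAF library reached the NMF range, although pCAF replicate 1 was several times above the other pCAF libraries. The gene was 6.27-fold lower in pCAF (edgeR adjusted p = 0.012), and without pCAF replicate 1 the fitted ratio was 0.0519 of the NMF level in place of 0.160. The 18 blood endothelial markers moved with it: their sums were 395.4, 249 and 201.8 CPM in pCAF replicates 1 to 3, also highest in replicate 1, and 5603, 7519, 4180 and 3679 CPM in NMF replicates 1 to 4. Sox17 was the 1 endothelial marker at 0 in all pCAF libraries. Whether Hspa12b fell within fibroblasts was not tested.

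HSP110 proteins recharge HSP70 with ATP, and none of their 3 genes passed the edgeR test (2 higher and 0 lower at an unadjusted p under 0.05, 1 higher with DESeq2, 0 with limma-voom). Hsph1, the heat-inducible member, had 214, 58.0 and 72.1 CPM in pCAF, against 42.5, 40.5, 32.4 and 69.5 CPM in NMF. The groups overlapped at NMF replicate 4, and pCAF replicate 1 was far above the other pCAF libraries. The 2.47-fold difference had an edgeR adjusted p of 0.0567, and without pCAF replicate 1 it was 1.39-fold. It passed without pCAF replicate 2, pCAF replicate 3 or NMF replicate 4 (edgeR adjusted p = 0.0303, 0.0472 and 0.0462). Hspa4 had means of 55.5 CPM in pCAF and 32.4 CPM in NMF and Hspa4l of 11.1 CPM in pCAF and 11.7 CPM in NMF (edgeR adjusted p = 0.121 and 0.914); without NMF replicate 4, Hspa4 was 2.12-fold higher in pCAF and passed (edgeR adjusted p = 0.0279).

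The HSP90 genes of the cytosol differed in their result. Hsp90aa1 (chr12:110690605-110702728), the inducible form, had 55.5, 42.2 and 49.3 CPM in pCAF replicates 1 to 3, against 1.93, 2.96, 4.22 and 19.98 CPM in NMF replicates 1 to 4. The groups did not overlap, but NMF replicate 4 was far above the other NMF libraries. Means of 49.0 ± 6.61 CPM in pCAF and 7.27 ± 8.53 CPM in NMF gave a fold of 6.31 (edgeR adjusted p = 0.0143), and 16.0 without NMF replicate 4. The 16.0-fold value rests on only 5, 7 and 12 counts in NMF replicates 1 to 3. Hsp90ab1, the constitutive form, had 325, 696 and 685 CPM in pCAF and 868, 678, 735 and 709 CPM in NMF. The groups overlapped, with pCAF replicate 1 alone well below the rest, and the gene did not pass (0.761-fold, edgeR adjusted p = 0.379). The annotation holds 3 copies of the Hsp90aa1 3' end, and the difference between the pair was not tested.

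Among the small heat shock proteins 0 of 6 tested genes rose by the edgeR test (2 at an unadjusted p under 0.05, 2 with DESeq2, 1 with limma-voom) and 1 fell. Hspb6, known from muscle, had 1.11, 1.69 and 2.77 CPM in pCAF, against 4.63, 9.71, 7.39 and 16.99 CPM in NMF. The groups did not overlap and NMF replicate 4 was highest, on 10 counts in all pCAF libraries and 147 in all NMF libraries. It was 5.17-fold lower in pCAF (edgeR adjusted p = 0.0245), a call that was lost in 4 of 14 alternative fits. The last part of Hspb6 overlaps an exon of Lin37. Skeletal muscle markers, 7 genes of which 4 were lower, summed to 12.8 to 48.8 CPM in pCAF and to 64.2 to 229.9 CPM in NMF, with NMF replicate 4 highest. The part of these markers in the result was not tested. Hspb7, described next and also known from muscle, was higher in every pCAF library than in any NMF library, opposite to the markers.

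Hspb7, known from heart and muscle, had 17.7, 18.6 and 21.1 CPM in pCAF, against 0.386, 1.69, 0.352 and 9.52 CPM in NMF. Its groups lay apart as well, and NMF replicate 4 was again the highest NMF library. The 5.74-fold difference missed the threshold (edgeR adjusted p = 0.0525). It passed without pCAF replicate 1 (edgeR adjusted p = 0.0482), and without NMF replicate 4 it was 23.2-fold (edgeR adjusted p = 0.00168). The 23.2-fold value rests on only 1, 4 and 1 counts in NMF replicates 1 to 3. Hspb1, a stress-inducible small heat shock protein, had 877, 291 and 353 CPM in pCAF and 459, 579, 358 and 352 CPM in NMF. Among the pCAF libraries replicate 1 was above and replicate 2 below every NMF library, so the groups overlapped (1.16-fold, edgeR adjusted p = 0.728), and without pCAF replicate 1 the ratio was 0.736. Hspb11, a subunit of the intraflagellar transport machinery, had 14.4, 42.2 and 41.6 CPM in pCAF and 16.6, 14.4, 17.2 and 6.35 CPM in NMF. Replicates 2 and 3 of pCAF were above all NMF libraries and replicate 1 was among them (2.42-fold, edgeR adjusted p = 0.0704). Without pCAF replicate 1 it was 3.115-fold higher and passed (edgeR adjusted p = 0.00774).

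The crystallin Cryab belongs to the same protein fold although its symbol falls outside the rule, and it adjoins Hspb2 on chromosome 9. Cryab had 172, 363 and 520.5 CPM in pCAF, against 81.5, 112, 83.4 and 99.7 CPM in NMF. Every pCAF library was above every NMF library, and the 3.74-fold difference passed (edgeR adjusted p = 0.00304). Hspb2 had 13.2 CPM in pCAF and 9.24 CPM in NMF on average and did not pass (edgeR adjusted p = 0.615). The gene models of the pair overlap on opposite strands, and strandedness of the counting is not given in the sources used here, so their reads may not be fully separated. Cryaa, the other crystallin, averaged 6.88 ± 6.11 CPM in pCAF, was at 0 in NMF and was not tested.

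**Figure D3:**
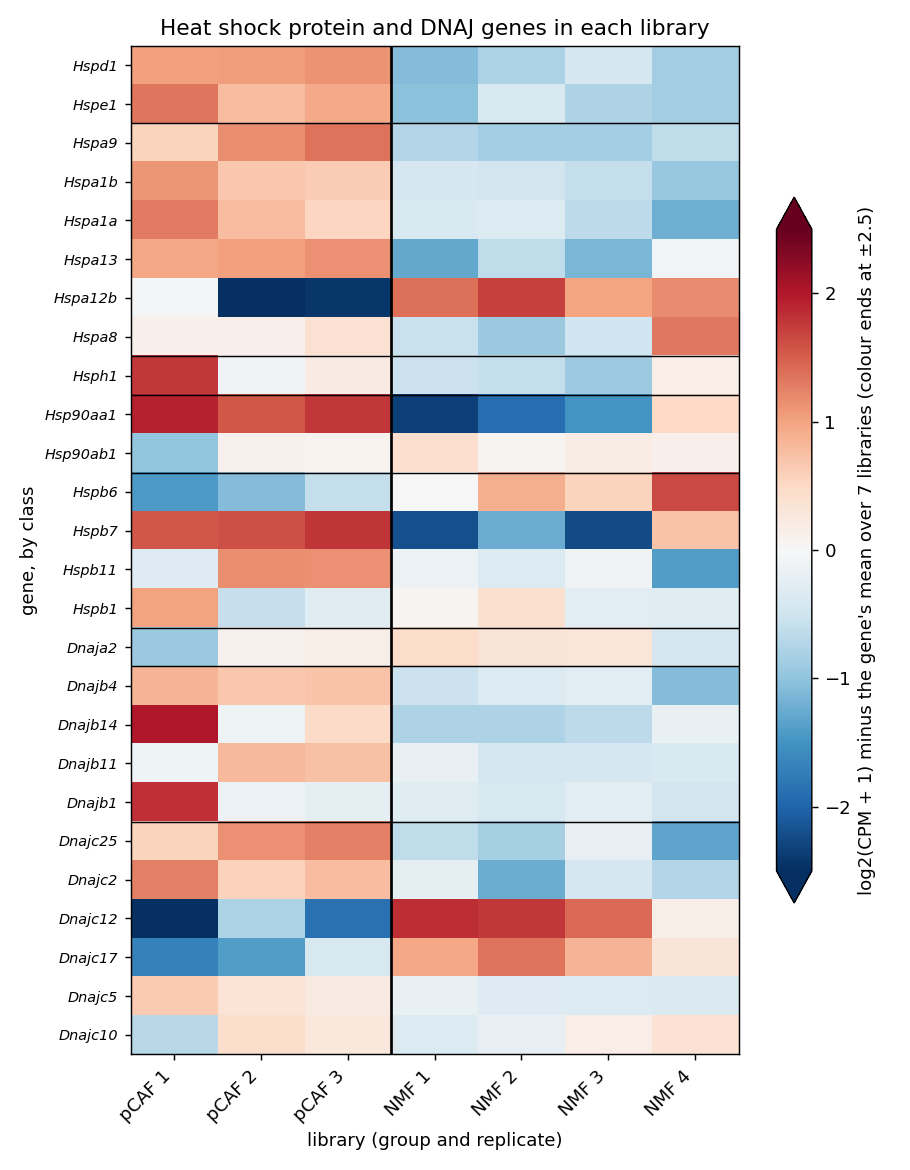
Log2(CPM + 1) of 26 genes minus each gene's mean over the 7 libraries, with libraries in columns (3 pCAF left of the line, 4 NMF right of it) and genes in rows by class; red is above and blue below the gene's mean, and values beyond the scale take its end colour. The rows of Hspd1, Hspe1 and Hspa9 are red in pCAF and blue in NMF, whereas Dnajb1, Hsph1 and Dnajb14 are darkest in pCAF replicate 1, and Hspb7 and Hsp90aa1 are blue in NMF replicates 1 to 3 but not in replicate 4.

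J proteins fall into series A, B and C by the domains beside the J domain. In the Dnaja series 0 of 3 tested genes passed by edgeR, and 0 did so at an unadjusted p under 0.05, with DESeq2 or with limma-voom. Dnaja2, a general partner of cytosolic HSP70, had 17.7, 37.7 and 38.8 CPM in pCAF, against 47.9, 43.9, 43.3 and 25.6 CPM in NMF. The ranges overlapped, with the lowest value in pCAF replicate 1 (0.785-fold, edgeR adjusted p = 0.516). Dnaja4 had means of 26.7 CPM in pCAF and 35.3 CPM in NMF (edgeR adjusted p = 0.466), and without pCAF replicate 1 it was lower in pCAF, at 0.532 of the NMF level (edgeR adjusted p = 0.0322). Dnaja1 had 29 counts in all 7 libraries and was not tested. Its 3' end matches 5 annotated genes, among them Smu1 and Gm6297, which overlap it on the other strand.

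In the Dnajb series 3 of 9 tested genes rose and 0 fell by edgeR (0 lower at an unadjusted p under 0.05, with DESeq2 or with limma-voom). The edgeR shares were 33.3% and 0%, beside 14.3% and 14.2% of all tested genes. Dnajb4, a J protein of the cytosol, had 36.6, 32.7 and 33.3 CPM in pCAF, against 13.5, 15.6, 16.2 and 8.96 CPM in NMF. The pCAF libraries lay close together above all NMF libraries (2.53-fold, edgeR adjusted p = 0.0124). Dnajb11, a partner of the HSP70 of the endoplasmic reticulum, had 84.3, 161 and 152 CPM in pCAF and 79.95, 67.1, 67.6 and 69.5 CPM in NMF. The groups did not overlap, but pCAF replicate 1 came near NMF replicate 1 (1.86-fold, edgeR adjusted p = 0.0333), and the call was lost in 8 of 15 alternative fits. Dnajb14, a J protein of the endoplasmic reticulum membrane, had 72.1, 15.8 and 24.4 CPM in pCAF and 9.66, 9.71, 10.6 and 14.9 CPM in NMF. Its separation rested largely on pCAF replicate 1, without which the 3.30-fold difference (edgeR adjusted p = 0.0277) was 1.76-fold and did not pass.

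Dnajb1, the heat-inducible partner of the inducible HSP70 genes, had 490, 124 and 115 CPM in pCAF, against 112, 103, 112 and 99.0 CPM in NMF. All 3 pCAF libraries were above the NMF libraries, yet replicates 2 and 3 only just, and the 2.28-fold difference did not pass (edgeR adjusted p = 0.0802). Without pCAF replicate 1 it was 1.12-fold, while leaving out pCAF replicate 2 or 3 brought it past the threshold (lowest edgeR adjusted p = 0.0363). Hsph1 and Hspb1, also known as heat-inducible, were highest in the same library, as were the inducible Hspa1a, Hspa1b and Hsp90aa1. Bag3, a stress-inducible gene given below, was slightly the lowest of its group there, with 195 CPM against 201 and 204.5 CPM. Hspd1, whose promoter run is printed above, was also slightly the lowest of its group there. In pCAF replicate 1, 12 of the 56 genes (21.4%) lay more than 1 log2 unit above the other pCAF libraries and 14 (25.0%) more than 1 unit below, beside 16.3% and 27.1% of all tested genes.

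In the Dnajc series 3 of 22 tested genes rose and 2 fell, 13.6% and 9.09%, beside 14.3% and 14.2% of all tested genes. Dnajc25 had 47.7, 72.1 and 78.7 CPM in pCAF, against 20.5, 17.7, 27.8 and 12.3 CPM in NMF. Dnajc2, which works with an HSP70 at the ribosome on new polypeptides, had 102, 63.1 and 72.1 CPM in pCAF and 35.9, 17.3, 31.3 and 24.8 CPM in NMF. In neither gene did the groups overlap, and pCAF replicate 1 was the lowest of its group for Dnajc25 and the highest for Dnajc2. The differences were 3.39-fold and 2.89-fold (edgeR adjusted p = 0.00385 and 0.00588). Dnajc5 encodes cysteine string protein, which sits on secretory vesicles, and had 189, 152 and 140 CPM in pCAF, against 105, 95.8, 94.0 and 93.6 CPM in NMF. Its groups lay apart and the NMF libraries close together, and its 1.65-fold difference passed (edgeR adjusted p = 0.0372), a call also lost in 8 of 15 alternative fits.

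Dnajc12, a J protein that in humans binds the aromatic amino acid hydroxylases, fell in pCAF. It had 0, 2.25 and 0.554 CPM in pCAF replicates 1 to 3, against 19.3, 18.2, 14.1 and 5.23 CPM in NMF replicates 1 to 4. All NMF libraries were above all pCAF libraries, where only 5 counts were seen in total against 161 in NMF. The gene was 14.4-fold lower in pCAF (edgeR adjusted p = 0.00903), and without pCAF replicate 2 the fitted ratio was 0.0229 in place of 0.0693. Dnajc17, a J protein linked to splicing, had 1.66, 2.25 and 5.54 CPM in pCAF, against 15.8, 21.1, 14.4 and 9.71 CPM in NMF. Its groups did not overlap either, on 17 counts in pCAF and 184 in NMF (4.76-fold lower in pCAF, edgeR adjusted p = 0.0138). The ratio of Dnajc17 was 0.132 in place of 0.210 without pCAF replicate 3, the call was lost without pCAF replicate 2 (edgeR adjusted p = 0.0562), and its last part overlaps an exon of Zfyve19.

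Dnajc10, an endoplasmic reticulum J protein with disulfide reductase activity, had 78.2, 173 and 153 CPM in pCAF and 99.7, 110, 143 and 164 CPM in NMF. The ranges overlapped fully and the gene did not pass (1.04-fold, edgeR adjusted p = 0.912). Beside Dnajb14, 5 further J proteins of the endoplasmic reticulum (Dnajb9, Dnajb11, Dnajc1, Dnajc3 and Dnajc10) were grouped after the values were seen, of which 1, Dnajb11, rose and 0 fell, with log2 fold changes from -0.54 to 0.90. The 30 tested genes of the families that the naming rule did not pick include some described above, such as Hspa4 and Dnaja4. These 30 had log2 fold changes from -0.95 to 1.13 and edgeR adjusted p values of at least 0.121. Dnajc7 had a log2 fold change of 0.35 (edgeR adjusted p = 0.598) and one of -0.60, which passed, without pCAF replicate 1 (edgeR adjusted p = 0.0426). Dnajb6, whose promoter holds a run of 3 heat shock units, had means of 25.9 CPM in pCAF and 25.5 CPM in NMF (edgeR adjusted p = 0.985). Among these genes the values of Dnaja3 were all higher, and those of Dnajc30 and Dnajc8 all lower, in pCAF than in NMF. Of the 14 genes not tested, 5 were at 0 in all libraries (Dnajb7, Dnajb8, Dnajb13, Dnajc5b and Dnajc5g) and the others had 1 to 55 counts in total.

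Co-chaperones that the symbol rule does not reach were read from a list of 29 regulators of HSP70, HSP90 and HSF1, of which 27 were tested. In that list 1 gene rose and 0 fell by edgeR (3 higher and 1 lower at an unadjusted p under 0.05, 2 and 1 with DESeq2, 1 and 0 with limma-voom), beside 14.3% and 14.2% of all tested genes by edgeR, and the median log2 fold change was 0.05. The gene was Bag2, which releases nucleotide from HSP70, with 20.5, 21.4 and 33.3 CPM in pCAF, against 8.11, 4.64, 4.58 and 3.17 CPM in NMF. The groups lay apart (4.93-fold, edgeR adjusted p = 0.00352). Hsf1 itself had 55.8 ± 7.49 CPM in pCAF and 68.3 ± 9.36 CPM in NMF, and the stress-inducible co-chaperone gene Bag3 200.1 ± 5.01 CPM in pCAF and 169 ± 6.46 CPM in NMF (edgeR adjusted p = 0.425 and 0.436). Stub1, a ubiquitin ligase that acts on HSP70 clients, had 232.5 ± 60.9 CPM in pCAF and 221 ± 49.5 CPM in NMF (edgeR adjusted p = 0.876).

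The cytosolic chaperonin TRiC, a folding barrel related to that of mitochondria, and its helper prefoldin were covered by 16 genes, all tested. In this list 6 rose and 0 fell by edgeR (0 lower at an unadjusted p under 0.05, with DESeq2 or with limma-voom), beside 14.3% and 14.2% of all tested genes by edgeR, and the median log2 fold change was 0.87. Tcp1, a barrel subunit, had 311, 300.2 and 356 CPM in pCAF, against 88.8, 92.9, 112 and 107 CPM in NMF. Every pCAF library was far above every NMF library (3.22-fold, edgeR adjusted p = 5.12e-04). The 3' end of Tcp1 matches 3 other genes in the annotation, Acat3, Acat2 and Mrpl18, the longest match 300 bp at 100% identity. Its last part overlaps exons of Acat3 and Mrpl18 on the other strand, so its reads may not be fully separated. Their matches may be this same stretch of the genome rather than copies elsewhere. Cct8 and Cct6a, named next, have 1 and 40 such matches, and that of Cct8 is Usp16, which overlaps it on the other strand. Cct8 and Cct2, also barrel subunits, were 2.91-fold and 1.95-fold higher (edgeR adjusted p = 0.00682 and 0.0124), and Cct3, Cct6a and Cct7 were the other genes that rose. The prefoldin gene Pfdn5 had 527 ± 146 CPM in pCAF and 814 ± 209 CPM in NMF and did not pass (edgeR adjusted p = 0.168). Only 3 of the 16 passed when counts were scaled by library totals or when any of 5 single libraries was left out. Of 5 tested genes for ubiquitin and aggregate handling 0 changed by edgeR, and 0 did so at an unadjusted p under 0.05, with DESeq2 or with limma-voom.

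**Figure D4:**
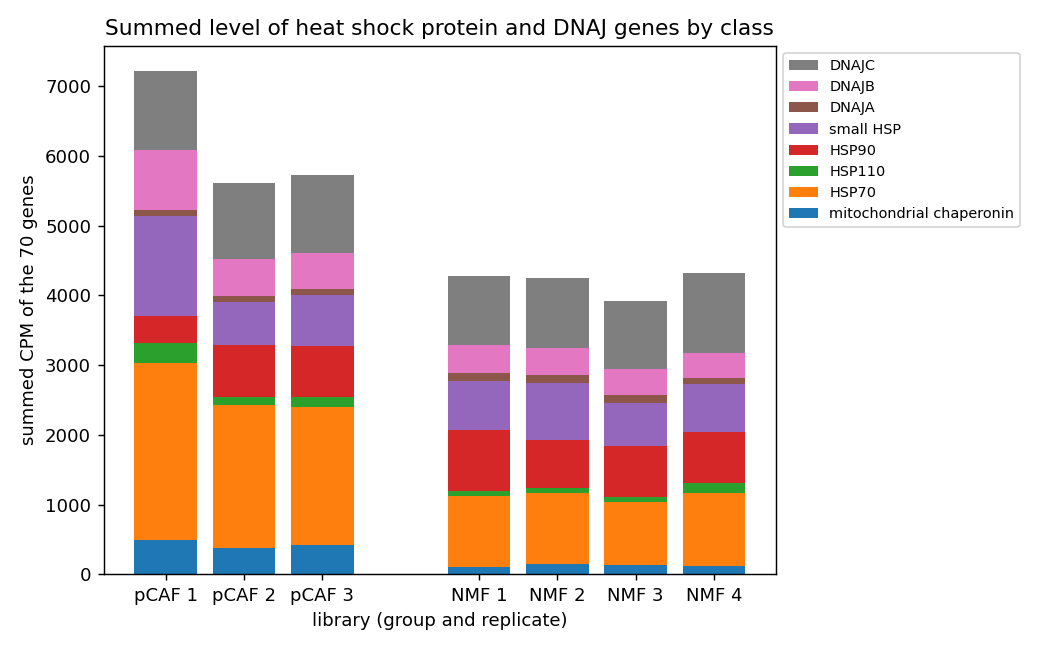
Summed level in CPM (y axis, from 0) of the 70 genes in each library (x axis, 3 pCAF left and 4 NMF right), stacked by class. The pCAF bars reach 5611 to 7218 CPM and the NMF bars 3920 to 4324 CPM, and the HSP70 layer is the one that differs most in height.

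Summed over the 70 genes, the families took 7218, 5611 and 5724 CPM in pCAF replicates 1 to 3, against 4277, 4246, 3920 and 4324 CPM in NMF replicates 1 to 4. All pCAF libraries were above all NMF libraries, with replicate 1 the highest, and the ratio of the means was 1.48. As a share of counts this was 0.528% to 0.596% in pCAF and 0.410% to 0.464% in NMF. Without Hspa1a and Hspa1b the means were 4548 ± 530 CPM in pCAF and 3600 ± 233 CPM in NMF, a ratio of 1.26. The HSP70 class summed to 2191 ± 300.3 CPM in pCAF and 1000 ± 67.3 CPM in NMF, and the mitochondrial chaperonin to 431 ± 58.3 CPM in pCAF and 122 ± 20.4 CPM in NMF. Sums of the Dnajc series were 1111 ± 17.4 CPM in pCAF and 1028 ± 84.1 CPM in NMF. The HSP90 pair summed to 617.6 ± 205 CPM in pCAF and 754.5 ± 81.0 CPM in NMF. These sums describe the libraries and were not tested.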

How the data were processed

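The authors deposited a table of raw counts per gene symbol for 7 libraries; per the labels' protocols they were made from 3' ends of polyadenylated RNA. The submitters' processing notes name bcl2fastq, STAR 2.4.2a, HTSeq and mm10. The annotation, strandedness, treatment of reads with several matches and use of molecular identifiers are not given in the sources used here. Libraries were grouped by title, so pCAF replicate 3 was kept in pCAF.

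Genes were kept by filterByExpr in edgeR 4.0.16 (R 4.3.3), libraries were scaled by TMM, and CPM were computed from these effective sizes. The comparison of pCAF with NMF used the quasi-likelihood F test of edgeR (two-sided, robust dispersions), and p-values were adjusted by Benjamini-Hochberg over the 10535 genes; fold changes are the fitted ones, pCAF over NMF, and errors are SDs of CPM (n = 3 pCAF, n = 4 NMF). The test was checked on simulated counts.

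The genes, the lists of related and marker genes and the tests were chosen with earlier results of these data known. Named genes were all called ones, Hspa1a, Hsp90aa1, Hspd1 and Dnajb1, those with an adjusted p from 0.05 to 0.1, and in each class the gene with the highest mean CPM that did not pass; of each related list up to 3 called genes by adjusted p and the highest that did not pass. One gene that this rule names is not reported here. Hsf1, Bag3, Trap1, Lonp1, Cct3, Cct6a, Cct7, Hspa4, Hspa4l, Hspb2, Dnaja3, Dnaja4, Dnajb6, Dnajc7, Dnajc8 and Dnajc30 were named after their values were seen.

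Alternatives were DESeq2 size factors, library totals, DESeq2 1.42.0, limma-voom (limma 3.58.1), other filters, a replicate block and leaving out each library; leaving out pCAF replicate 1 and NMF replicate 4 together was added after the data were seen. Same-numbered libraries had correlations of deviations from group means of -0.0932, 0.0794 and -0.0132, so the numbers were not used to pair groups. Copies of the last 300 bp of transcripts (at least 80 bp at 95% identity, blastn 2.17.0) and exon overlaps of the last 1000 bp were read from GENCODE M21 for mm10. Matches to genes that overlap on the other strand were counted among the copies. Promoters came from RefSeq (GRCm38.p6). Protein motifs were planned and not analysed here. Tables and plots used Python 3.11.15, pandas 2.3.3, Biopython 1.88 and matplotlib 3.10.9.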

Additional observations from a re-analysis of the deposited data

Results flagged for a closer look

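Of 27 values screened in the 4 NMF libraries, 3 had a highest library whose distance to the nearest other, divided by the range of the group, was over the critical value of Dixon's test, and all 3 were in NMF replicate 4. About 1 in 20 such groups is marked by chance; the 3 pCAF libraries are too few to be screened. Hsp90aa1 had 19.98 CPM there, with a gap of 0.873 of the range. Hspa8 had 393.1 CPM, with a gap of 0.910. Hspb7 had 9.524 CPM, with a gap of 0.854. The same library had the lowest sums of the 20 immediate early genes (7260 CPM) and of the adipocyte markers (1950 CPM) and the highest sum of the skeletal muscle markers (229.9 CPM) among the NMF libraries, and their part in these values was not tested.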

How the results depend on the processing

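Of the 17 genes called, 11 kept their call in every alternative fit in which they were tested, and Dnajb4, Dnajb11, Dnajb14, Dnajc5, Dnajc17 and Hspb6 lost it in at least 1. Counts of 13 higher and 4 lower ranged from 10 to 17 and from 2 to 6 when single libraries were left out. Over all tested genes, the counts in those fits ranged from 1016 of 10201 to 2021 of 11048 higher. They ranged from 979 of 10201 to 2187 of 11048 lower. With a mean of at least 10 CPM required, Dnajc12 and Hspb6 were below that level and not tested. That left 2 genes of the families lower, beside 1241 of all 8485 tested genes. Without pCAF replicate 1 and NMF replicate 4 together, 22 were higher and 9 lower (25.9% and 26.9% of all tested genes), the median log2 fold change was 0.30, and Hspb1 turned to -0.54 on the log2 scale (edgeR adjusted p = 0.0344; -0.44 to 0.49 with single libraries left out); the cause was not tested. Library totals gave a median of -0.0804, against a range of 0.10 to 0.24 for single libraries left out, and a summed NMF level of 4473 CPM. Elements of 2 units were in 16 promoters in place of 4.

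The replicate block gave 10 higher and 3 lower, 12 of them among the 17 called, with Hspb7 added and Dnajb4, Dnajb11, Dnajb14, Dnajc5 and Hspb6 lost; it put 3 TRiC and prefoldin genes and 0 mitochondrial folding genes higher. Over all 10535 tested genes the replicate block gave 978 higher and 1023 lower. NMF replicate 4 has a term of its own in that fit, which leaves fewer degrees of freedom.

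Co-chaperones that rose (1) were 2 with DESeq2 and 4 without both libraries; those that fell (0) were 1 with library totals, 1 with DESeq2, 6 without both libraries and 0 to 3 with single libraries left out. TRiC and prefoldin genes that rose (6) were 3 with library totals, 10 without both libraries and 3 to 8 with single libraries left out, and 1 fell without both. Mitochondrial folding genes that rose (1) were 0 with library totals or no filter, 4 without both libraries and 0 to 1 with single libraries left out. They were also 0 with a mean of at least 10 CPM, where Yme1l1 was not tested. Crystallins that rose (1) were 2 without a filter and without both libraries, and 1 to 2 with single libraries left out. Over all tested genes DESeq2 called 1780 of 10535 higher and 1884 lower. The fit with no filter called 1507 of 16554 higher and 1566 lower. Depth limits the genes with few counts, above all Dnajc12, Dnajc17 and Hspb6, and the 14 not tested. It also limits the folds of Hsp90aa1 and Hspb7, which had few counts in NMF replicates 1 to 3. With 3 and 4 libraries a gene that did not pass is not shown to be unchanged. The planned protein motif search was not run.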
